A study of Mus musculus with 2 samples.

Results

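The collagen genes of the mouse genome were followed across the cell types of normal duodenum and of polyps. Every gene symbol made of Col, a number, a and a number was taken, which gave 44 of the 32285 genes in the deposited matrices. Of these, 30 had at least 20 unique molecular identifiers (UMIs, tags that count each captured RNA molecule once) over both matrices and are described below. They comprised 9 of 11 fibrillar collagen genes, 4 of 6 basement membrane collagen genes and 17 of 27 others.

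Both libraries came from mice with the Myh11-Cre/ERT2 transgene, a tamoxifen-inducible recombinase under the promoter of Myh11, the smooth muscle myosin gene. The normal library was made from duodenum of 3 Lkb1+/+;Myh11-Cre/ERT2 mice. The polyp library was made from polyps of 3 Lkb1flox/+;Myh11-Cre/ERT2 mice, in which the recombinase can remove 1 allele of Lkb1 in cells that use the Myh11 promoter. Each group was 1 droplet library (10x 3′ v3) in which the 3 mice could not be told apart, so there was no replicate and no test was run. The source label of both samples named duodenum, and the site of the polyps was not stated beyond that. Age, sex and the tamoxifen course were not given in the sources used here.

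The matrices held 39222238 UMIs (normal) and 63566462 UMIs (polyp), and 3167 and 7887 cells were kept, with medians of 2421 and 2318 UMIs per cell. The libraries shared 44 cell barcodes, 9 of them among kept cells. Stk11, the gene that encodes LKB1, had 28.2 CPM (26.0–30.5) in normal and 38.6 CPM (36.9–40.4) in polyp cells, and which exons the 3′ tags of this table covered was not examined. CPM are UMIs of a gene per 1000000 UMIs of the cells summed, and all intervals are 95% intervals for counting error only. They leave out differences between mice, tissue pieces and library preparations.

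Collagens are proteins of 3 intertwined chains that form the main scaffold of the extracellular matrix. Fibrillar collagens assemble into the cross-banded fibrils that give the gut submucosa its tensile strength, whereas type IV collagens form the sheet-like network of basement membranes under epithelium, around vessels and around muscle cells. The other families include microfibrils, proteins that sit on fibril surfaces, transmembrane collagens and the basement membrane proteoglycans XV and XVIII, and fibroblasts are the main source of most of them in the intestine.

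Cells were put in classes from UMIs of marker genes, none of them a collagen, and the names below stand for cells that resemble the class. The 33 normal and 189 polyp fibroblast-like cells expressed 9 of 9 fibroblast markers, at a summed 15618 and 16112 CPM. Single markers in that sum differed between the libraries: Dpt stood at 797 and 2355 CPM and Fbln1 at 403 and 1543 CPM, whereas Mfap5 stood at 1043 and 410 CPM and Clec3b at 929 and 498 CPM. The part of such a difference among the fibroblast-like cells in the collagen ratios was not tested. There were 12 and 36 smooth-muscle-like, 4 and 50 blood-endothelium-like and 727 and 4496 epithelial-like cells. The epithelial-like cells included 30 and 2588 mucous-like and 36 and 218 enteroendocrine-like cells.

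A circumstance of the normal library bears on every fibroblast-like comparison below. In that library 6 of the 33 fibroblast-like cells had a UMI of Msln or Upk3b, markers of mesothelium, the outer lining of the gut. These 6 cells held 38.3% of the class's UMIs and 386 UMIs of mesothelial markers, and their collagen level was 3565 CPM, against 8799 CPM in the other 27. No polyp fibroblast-like cell had a UMI of either gene. Ratios are given with all 33 normal cells and, as a choice made after seeing the data, also with the 27.

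The start regions of 3 members with different distributions are shown first: Col3a1, found mainly in fibroblast-like cells, Col18a1, found in both stroma and epithelium, and Col11a2, found in epithelium. The sequences are the bases before the RefSeq start on the GRCm38.p6 assembly that lie clear of annotated exons, 5′ to 3′ on the strand of the gene. Capitals mark the TATA box letters TATAAA, the CCAAT letters and the GC box letters GGGCGG on either strand. The Col3a1 window was chr1:45311288-45311537 on the plus strand, that of Col18a1 chr10:77166549-77166780 on the minus strand, ending 18 bases short of the start, and that of Col11a2 chr17:34038888-34039137 on the plus strand.
Col3a1: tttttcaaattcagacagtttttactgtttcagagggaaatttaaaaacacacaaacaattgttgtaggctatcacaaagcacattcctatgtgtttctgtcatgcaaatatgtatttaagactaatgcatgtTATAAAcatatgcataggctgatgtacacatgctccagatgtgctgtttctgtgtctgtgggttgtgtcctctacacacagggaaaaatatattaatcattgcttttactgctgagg
Col18a1: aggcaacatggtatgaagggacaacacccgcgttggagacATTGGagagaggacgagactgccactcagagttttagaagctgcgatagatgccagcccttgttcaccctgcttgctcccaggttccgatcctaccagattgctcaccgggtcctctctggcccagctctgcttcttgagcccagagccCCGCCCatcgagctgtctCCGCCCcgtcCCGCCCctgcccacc
Col11a2: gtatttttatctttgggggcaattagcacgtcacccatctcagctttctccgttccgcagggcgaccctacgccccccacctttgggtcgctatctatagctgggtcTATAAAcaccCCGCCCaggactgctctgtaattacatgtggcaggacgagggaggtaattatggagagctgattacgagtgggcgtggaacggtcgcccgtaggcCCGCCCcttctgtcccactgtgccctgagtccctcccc
Col3a1 had 1 TATAAA match, Col11a2 had 1 TATAAA and 2 GGGCGG matches, and Col18a1 had 1 CCAAT and 3 GGGCGG matches. RefSeq windows were present for 25 of the 30 members, with 27 windows of 250 bases in all. Unlike the sequences shown, these and the windows of all genes were searched whole, with any annotated exon bases in them. TATAAA lay in 3 of these 27 windows, against 12.4% of 32851 windows of all genes. CCAAT lay in 10, against 33.8%, and GGGCGG in 18, against 32.7%. The matches do not overlap one another in the 3 windows shown, and a match is only a match of letters.

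Several collagen genes lie beside each other. Col4a1 and Col4a2, whose chains combine in the common form of type IV collagen, start 21 bases apart on chromosome 8 in opposite directions (Col4a1 at 11198423–11312826, minus strand, and Col4a2 at 11312805–11449287, plus strand, GENCODE on mm10), and their exons overlap. Col4a6 and Col4a5 start 1309 bases apart on chromosome X, and Col3a1 and Col5a2 lie 24614 bases apart on chromosome 1. Exons of Col9a3 overlap those of Tcfl5 on the opposite strand, and exons of Col3a1 and Col20a1 overlap those of unnamed gene models on the same strand, so their counts carry an uncertainty that was not measured.

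Most collagen UMIs were in stromal-like cells. Stromal-like classes (fibroblast, smooth muscle, pericyte, endothelium and mesothelium) held 88.4% (86.8–89.9) of 1740 collagen UMIs in normal and 64.6% (63.7–65.6) of 10339 in polyp cells, while they made up 1.58% and 3.64% of the cells. Epithelial-like cells held 6.95% (5.80–8.25) and 30.4% (29.6–31.4) and were 23.0% and 57.0% of the cells. The stromal-like share of fibrillar UMIs was 92.5% in normal and 75.05% in polyp, that of basement membrane UMIs 93.8% and 70.6%, and that of other collagens 82.6% and 50.1%. The shares therefore differed most for the collagens outside the fibrillar and type IV families. They follow the number of cells of each class in the library as well as the level per cell.

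Over both libraries, fibroblast-like cells held more UMIs than any other class for 17 of the 30 members, epithelial-like cells for 12 and blood-endothelium-like cells for 1, Col13a1. The 12 epithelial members were Col18a1, Col11a2, Col9a3, Col27a1, Col4a5, Col23a1, Col16a1, Col28a1, Col20a1, Col11a1, Col25a1 and Col7a1. In the normal library alone this did not hold for Col4a5, with 1 of 11 UMIs in epithelial-like cells and 6 in smooth-muscle-like cells, Col23a1, with 1 of 9 and 4 in fibroblast-like cells, or Col7a1, with 4 of 20 and 7 in acinar-like cells. Nor did it hold for Col25a1, whose 1 normal UMI was in a fibroblast-like cell, or for Col28a1 and Col11a1, with 0 normal UMIs in kept cells. For Col18a1, epithelial-like cells held 78.6% of the UMIs in kept cells, for Col11a2 92.8% and for Col9a3 91.1%. For Col3a1, fibroblast-like cells held 82.3%, for Col1a2 80.6% and for Col6a5, a chain of type VI microfibrils, 87.4%. These are totals of UMIs, and the epithelial-like class had the most cells. In CPM, Col18a1 stood higher in polyp fibroblast-like cells (224 CPM) than in polyp epithelial-like cells (24.2 CPM).

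**Figure D1:**
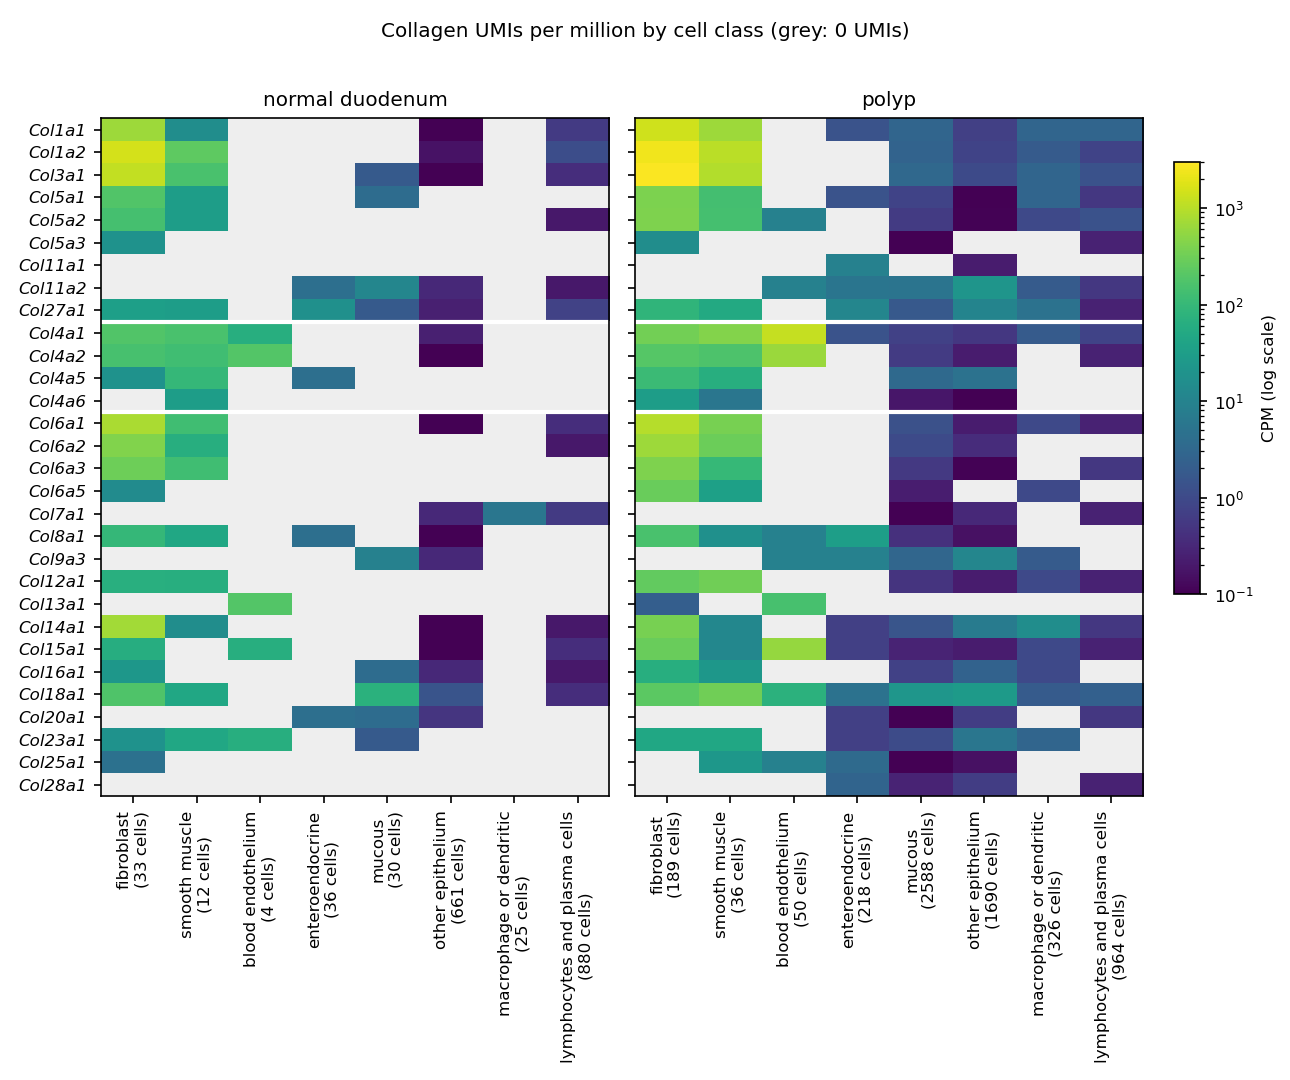
Level of the 30 collagen genes (rows, grouped as fibrillar, basement membrane and other) in the main cell classes (columns) of the normal and the polyp library, in CPM on a log colour scale, with grey for 0 UMIs. Col3a1, Col1a2 and Col1a1 each have their highest level in the fibroblast column of both panels, Col4a1 reaches 1205 CPM in polyp blood-endothelium-like cells, and Col18a1, Col11a2 and Col9a3 run through the epithelial columns.

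In fibroblast-like cells the summed collagen level was 6794 CPM in normal and 11832 CPM in polyp, from 1433 and 5397 UMIs. The ratio of polyp to normal was 1.74 (1.64–1.85) with all normal cells and 1.35 (1.26–1.44) with the 27 cells without mesothelial markers. Single cells overlapped widely. Their collagen level ran from 1698 to 46558 CPM with a median of 6356 in normal, and from 423 to 50041 CPM with a median of 10323 in polyp. One normal cell alone held 211 of the 1433 UMIs, and leaving out the cell with most collagen UMIs in each library gave a ratio of 1.89 (1.78–2.02).

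The ratio was larger for fibrillar collagens than for those outside the fibrillar and type IV families, with intervals that do not meet, although they met when every cell was thinned to 500 UMIs (1.386, 1.099–1.769, against 1.181, 0.878–1.618). Fibrillar collagens stood at 3727 (normal) and 7496 CPM (polyp), a ratio of 2.01 (1.86–2.18), or 1.54 (1.42–1.68) with the 27 cells. Basement membrane collagens stood at 351 and 671 CPM, a ratio of 1.91 (1.48–2.50), or 1.43 (1.08–1.92). The remaining collagens stood at 2717 and 3666 CPM, a ratio of 1.35 (1.23–1.49), or 1.06 (0.953–1.18), an interval that includes 1. The medians over single cells were 2683 and 5525 CPM for fibrillar and 3108 and 2985 CPM for other collagens.

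**Figure D2:**
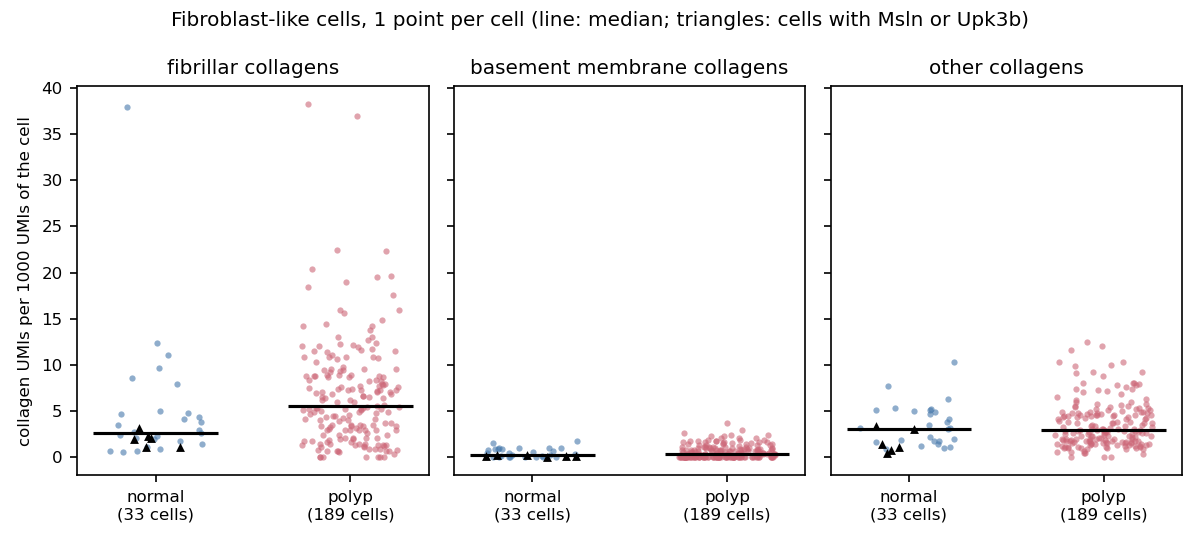
Collagen UMIs per 1000 UMIs of a cell for each fibroblast-like cell of the normal (33 cells) and polyp (189 cells) library, with a line at the median and triangles for the 6 normal cells with Msln or Upk3b. The fibrillar median is higher in polyp, the medians of the other collagens are close to each other, and the clouds overlap in all 3 panels.

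Of the 30 members, 20 had at least 20 UMIs in fibroblast-like cells and were compared one by one. A member was counted as higher or lower when its ratio lay past 1.5-fold and its interval did not include 1. With all normal cells 13 were higher in polyp and 1 was lower, against 10.8% and 10.9% of the 4409 genes compared in the same way. With the 27 cells 9 were higher and 1 was lower, against 9.9% and 8.58% of 3940 genes. Of the 13, 8 were also higher with the 27 cells, and Col18a1 was higher with the 27 cells only. The median log2 ratio of the 20 was 1.12, and that of all genes compared was -0.045. There were 7 of the 20 with fewer than 20 UMIs in normal cells, which entered only through the polyp cells, and 6 of them were among the 13, so the count is a description.

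All 6 fibrillar genes compared were higher in polyp fibroblast-like cells. Col3a1, the chain of type III collagen of soft tissues, stood at 1185 (normal) and 2773 CPM (polyp), a ratio of 2.34 (2.04–2.69), or 1.86 (1.60–2.18) with the 27 cells. Col1a1, a chain of type I collagen, stood at 650 and 1447 CPM, a ratio of 2.23 (1.85–2.70), or 1.54 (1.27–1.89). Col1a2, its partner chain, stood at 1517 and 2377 CPM, a ratio of 1.57 (1.38–1.78), which became 1.25 (1.09–1.44) with the 27 cells and was then under 1.5-fold. The UMI ratio of Col1a1 to Col1a2 in these cells was 0.428 (0.348–0.525) in normal and 0.609 (0.552–0.671) in polyp. In the 27 normal cells it was 0.494 (0.394–0.616), an interval that meets that of polyp.

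Type V collagen, which is built into type I fibrils and limits their width, showed the same order. Col5a2 stood at 142 (normal) and 410 CPM (polyp), a ratio of 2.88 (1.95–4.39), or 2.05 (1.36–3.22) with the 27 cells. Col5a1 stood at 180 and 390 CPM, a ratio of 2.17 (1.52–3.16), or 1.54 (1.06–2.30). Col27a1, a fibrillar collagen best known from cartilage, rested on 7 and 38 UMIs, with a ratio of 2.51 (1.11–6.66) that became 1.55 (0.683–4.11) with the 27 cells, an interval that includes 1. Of the other fibrillar genes, Col5a3 had 7 UMIs in polyp fibroblast-like cells, and Col11a2 had 0 UMIs in fibroblast-like cells of either library.

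Of the basement membrane genes, Col4a1 and Col4a5 were higher in polyp fibroblast-like cells. Col4a1 stood at 185 (normal) and 331 CPM (polyp), a ratio of 1.79 (1.25–2.62), which became 1.35 (0.915–2.04) with the 27 cells. Col4a2 stood at 147 and 195 CPM, a ratio of 1.33 (0.873–2.07), or 0.977 (0.625–1.58) with the 27 cells, and both intervals include 1. Col4a5, a chain of a second type IV network, stood at 19.0 and 114 CPM, a ratio of 6.01 (2.21–22.9), or 4.95 (1.60–24.8), from 4 and 52 UMIs. Col4a6, its neighbour, had 14 UMIs in polyp and none in normal fibroblast-like cells.

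Among the other collagens 5 of the 11 compared were higher in polyp fibroblast-like cells, and the type VI chains were unlike each other. Col6a5 stood at 14.2 (normal) and 283 CPM (polyp), from 3 and 129 UMIs, a ratio of 19.9 (6.65–97.7), or 12.3 (4.11–60.3) with the 27 cells. With every cell thinned to 2000 UMIs, 1 of 31 normal cells (3.23%) and 30 of 105 polyp cells (28.6%) had a Col6a5 UMI. Without thinning these shares were 6.06% and 23.8%, and 2 normal and 84 polyp cells were too shallow to be thinned. The chains Col6a1 (801 and 934 CPM, ratio 1.17, 0.973–1.40) and Col6a3 (313 and 403 CPM, ratio 1.29, 0.968–1.74) had intervals that include 1. With the 27 cells these ratios were 1.10 (0.887–1.36) and 0.808 (0.606–1.09), so that of Col6a3 lay on the other side of 1. Col6a2 stood at 427 and 667 CPM, a ratio of 1.56 (1.231–1.999), which became 1.21 (0.929–1.58) with the 27 cells.

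Col14a1 was the 1 member that was lower in polyp fibroblast-like cells. This collagen, which binds to the surface of fibrils, stood at 716 (normal) and 360 CPM (polyp), a ratio of 0.502 (0.400–0.631), or 0.360 (0.284–0.457) with the 27 cells. After thinning, 64.5% (45.4–80.8) of normal and 42.9% (33.2–52.9) of polyp cells had a Col14a1 UMI, and these intervals meet. Without thinning the shares were 84.8% and 41.3%. Col12a1, a related fibril-surface collagen, differed in the opposite direction, with 66.4 CPM in normal and 250 CPM in polyp, a ratio of 3.77 (2.15–7.11), or 2.32 (1.33–4.38). Col16a1, of the same family, rested on 5 and 29 UMIs and had a ratio of 2.68 (1.03–8.87), or 1.66 (0.633–5.48) with the 27 cells.

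Of the collagens XV and XVIII, which carry sugar chains and sit in basement membranes, Col15a1 was higher in polyp fibroblast-like cells, at 61.6 (normal) and 281 CPM (polyp), a ratio of 4.55 (2.57–8.78), or 2.81 (1.59–5.42) with the 27 cells. Col18a1, whose end fragment is endostatin, depended on the cells used. It stood at 175 and 224 CPM, a ratio of 1.27 (0.867–1.91), with all normal cells. Of its 37 normal UMIs 13 were in the 27 cells without mesothelial markers, and with these the ratio was 2.24 (1.25–4.35). Col8a1, a network-forming short-chain collagen, had a ratio of 1.62 (0.973–2.81), or 0.999 (0.600–1.73), and the transmembrane Col23a1 a ratio of 2.43 (0.819–9.73), or 1.498 (0.505–6.002).

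**Figure D3:**
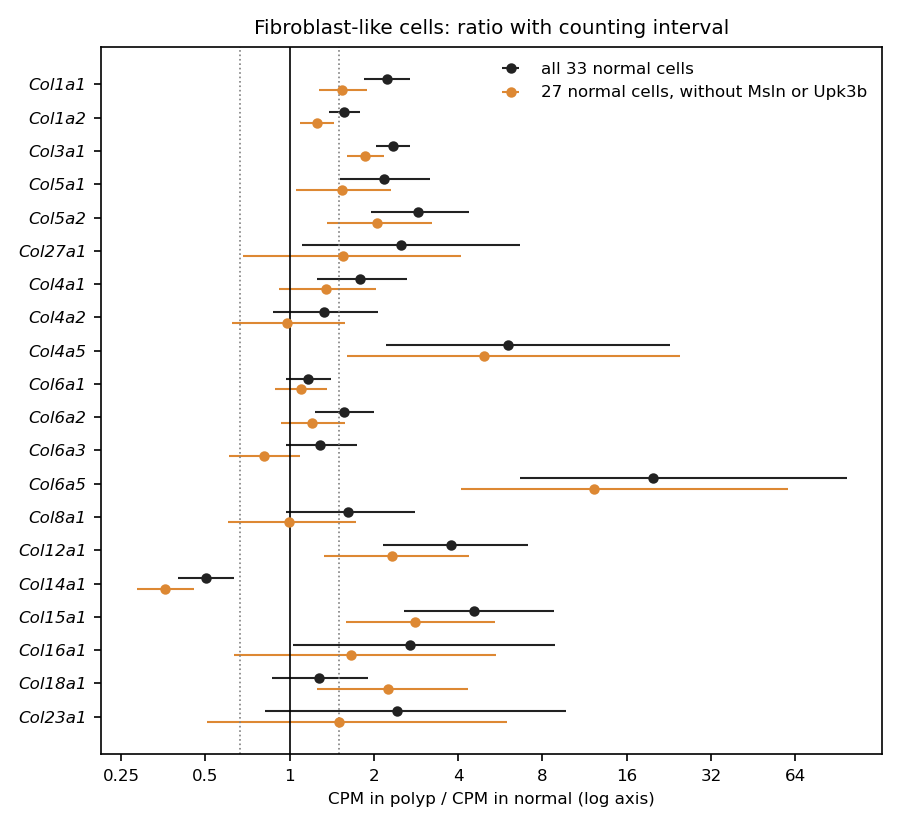
Ratio of polyp to normal CPM in fibroblast-like cells for the 20 members compared, on a log axis, with 95% counting intervals, for all 33 normal cells (black) and the 27 without Msln or Upk3b (orange). Dotted lines mark 1.5-fold in either direction; Col14a1 lies left of 1 and Col6a5 farthest right in both versions.

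Transcripts of other cell types differed between the libraries in these same cells. The 6 mucous markers summed to 114 CPM in normal and 9120 CPM in polyp fibroblast-like cells, the 6 erythroid markers to 133 and 1432 CPM, and the 8 acinar markers to 3295 and 377 CPM. The 8 smooth muscle markers summed to 56.9 and 662 CPM and the 6 pericyte markers to 47.4 and 471 CPM. Median depth was 6079 UMIs in normal and 2148 in polyp. Their part in the collagen ratios was not tested.

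Within the polyp, fibroblast-like cells were split by subepithelial markers (such as Foxl1 and F3) against interstitial markers (such as Pi16 and Cd34) into 21 and 145 cells, with 23 cells tied. The normal library had 2 and 31, too few for the same comparison. Collagens together stood at 16867 CPM in subepithelial-like and 10962 CPM in interstitial-like cells, a ratio of 1.54 (1.43–1.65). Col4a5 stood at 538 CPM against 52.6 CPM, a ratio of 10.2 (5.65–19.1), and Col12a1 at 620 against 194 CPM, a ratio of 3.20 (2.10–4.81). Col6a1 and Col6a2 had ratios of 2.23 (1.77–2.79) and 2.49 (1.89–3.24). Col14a1 stood at 114 CPM against 421 CPM, a ratio of 0.271 (0.107–0.573), and Col8a1 had 1 UMI in the 21 cells against 63 UMIs in the 145. Col3a1, Col5a2, Col6a3 and Col15a1 had ratios between 0.793 and 1.22, with intervals that do not meet those of Col4a5 and Col12a1. Of the 21 subepithelial-like cells, 9 were within 1 marker UMI of a tie. These 21 cells held 33 of the 52 Col4a5 UMIs of polyp fibroblast-like cells. In the 2 normal subepithelial-like cells Col4a5 stood at 404 CPM (2 UMIs) and Col12a1 at 1212 CPM (6 UMIs). The part of the unlike subset shares in the polyp to normal ratios of these genes was not tested.

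**Figure D4:**
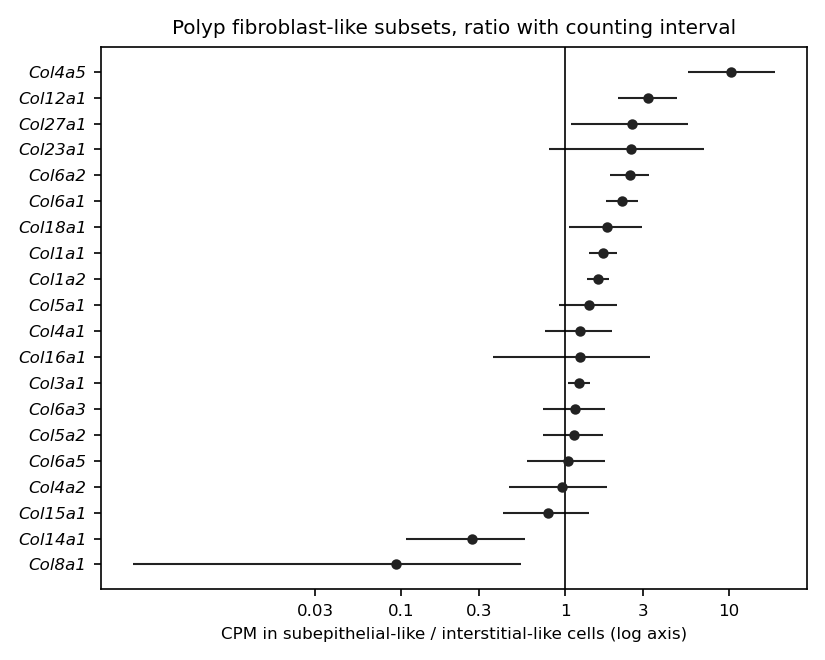
Ratio of subepithelial-like (21 cells) to interstitial-like (145 cells) CPM in the polyp library for each of the 20 members, on a log axis with 95% counting intervals. Col4a5 and Col12a1 lie farthest right, and Col14a1 and Col8a1 lie left of 1.

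In smooth-muscle-like cells collagens stood at 1445 CPM (12 cells, 92 UMIs) in normal and 5205 CPM (36 cells, 896 UMIs) in polyp, and the number of cells allowed no ratio. One polyp cell held 360 of the 896 UMIs. It had 153 UMIs of Tagln and 42 of Acta2 but 0 of Myh11 and 0 of Des, which mark mature muscle, and 118 UMIs of Col1a2, 71 of Col1a1 and 35 of Col18a1. Without this cell the polyp level was 3443 CPM (3157–3747), Col1a2 was 405 in place of 1051 CPM and Col1a1 was 283 in place of 668 CPM. Col3a1 was 157 CPM in normal and 906 CPM in polyp, or 764 CPM without that cell. Col4a1 was 157 and 442 CPM, and Col4a5 was 94.3 and 63.9 CPM from 6 and 11 UMIs.

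Blood-endothelium-like cells had basement membrane collagens and almost no fibrillar UMIs. In the 50 polyp cells Col4a1 stood at 1205 CPM (1006–1431), Col4a2 at 644 CPM (501–815), Col15a1 at 579 CPM (444–742), the transmembrane Col13a1 at 149 CPM (85.4–243) and Col18a1 at 74.7 CPM (32.3–147). Col3a1, Col1a1 and Col1a2 had 0 UMIs, and all fibrillar collagens together had 2 UMIs. Col4a1 was 3.64 times (2.85–4.63) and Col15a1 2.06 times (1.498–2.815) the level of polyp fibroblast-like cells. The 4 normal cells had 9 collagen UMIs in all, 3 of Col4a2 and 3 of Col13a1. The 8 lymphatic-endothelium-like cells, all in polyp, had Col4a1 and Col18a1 at 217 CPM each and Col23a1 at 167 CPM, with 18 basement membrane and 2 fibrillar UMIs of 43. The 3 polyp pericyte-like cells had 36 collagen UMIs and 1561 CPM.

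The ratio of Col4a1 to Col4a2 UMIs was 1.70 (1.30–2.23) in fibroblast-like, 2.62 (1.69–4.17) in smooth-muscle-like and 1.87 (1.39–2.54) in blood-endothelium-like polyp cells, with intervals that meet. The ratio of Col4a5 to Col4a1 was spread much more widely over the classes. It was 0.344 (0.246–0.475) in fibroblast-like cells, 5.89 (3.93–9.14) in epithelial-like cells and 0 in blood-endothelium-like cells, where 129 Col4a1 UMIs and no Col4a5 UMI were counted. These are counts of 3′ tags and are not divided by gene length.

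In epithelial-like cells the collagen level was 9.33 CPM in normal and 76.0 CPM in polyp, a ratio of 8.14 (6.79–9.85), from 121 and 3148 UMIs. Background readings that bear on these levels are given below. Of 18 members compared, 15 were higher in polyp and none lower, against 26.1% and 19.8% of 13864 genes. Of the 18, 17 had fewer than 20 UMIs in normal cells and entered through the polyp cells, Col18a1 being the exception. The median log2 ratio of the 18 was 3.23, and that of all genes compared was 0.073. Cell makeup differed between the libraries: 2588 of 4496 polyp cells were mucous-like against 30 of 727 normal cells. Without mucous-like cells and enteroendocrine-like cells the level was 4.51 CPM in 661 normal and 98.4 CPM in 1690 polyp cells, a ratio of 21.8 (16.7–29.1). The normal level (3.39–5.86) was not above the 5.60 CPM (3.75–8.04) of normal lymphocyte- and plasma-like cells. When all kept cells were clustered, the clusters named for epithelial types came mostly from 1 library. A cluster named crypt held 114 normal and 1 polyp cells. Another, with 0 and 1081 cells, took the same name on a mean log2 marker fold of only 0.44. In the epithelium outside mucous- and enteroendocrine-like cells all 9 members compared were higher, against 31% higher and 21% lower among 12814 genes. All 9 had fewer than 20 UMIs in normal cells.

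Col18a1 stood highest among the members in polyp epithelial-like cells, at 4.32 (normal) and 24.2 CPM (polyp), a ratio of 5.60 (4.28–7.47). Col11a2, a fibrillar collagen best known from cartilage, stood at 0.848 and 12.6 CPM, a ratio of 14.8 (8.20–29.8). Col9a3, a fibril-surface collagen also known from cartilage, stood at 0.694 and 6.93 CPM, a ratio of 9.98 (5.19–22.1). Neither Col11a2 nor Col9a3 had a UMI in fibroblast-like cells of either library. Col27a1 stood at 0.617 and 6.08 CPM, Col23a1 at 0.0771 and 3.11 CPM, Col4a5 at 0.0771 and 3.98 CPM and Col14a1 at 0.0771 and 4.10 CPM, the last 3 from 1 normal UMI each. Their ratios were 9.86 (4.93–23.1), 40.4 (7.12–1607), 51.6 (9.14–2052) and 53.2 (9.42–2114).

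Free RNA in droplets gives some collagen UMIs to every cell, and its level was read in classes that should lack these genes. Lymphocyte- and plasma-like cells had 5.60 CPM in normal and 14.3 CPM in polyp. In polyp these cells had Col18a1 at 2.38, Col11a2 at 0.529 and Col14a1 at 0.529 CPM and 0 UMIs of Col9a3, Col23a1 and Col4a5. By this reading alone, these 6 genes stood higher in epithelial-like cells. Col23a1 and Col4a5 were not set against the erythroid-like cells described below, in which Col18a1 had 4 UMIs. Col3a1 at 2.17 and Col1a1 at 1.88 CPM in epithelial-like cells were near the 1.32 and 2.91 CPM of the lymphocyte- and plasma-like cells. The polyp erythroid-like cells had a higher background, 110 CPM for all collagens, with Col3a1 at 20.4, Col14a1 at 11.0 and Col11a2 at 7.84 CPM (2.55–18.3). By that reading the epithelial Col14a1 and Col11a2 were not clear of background. Col9a3 had 3 UMIs in the erythroid-like cells, or 4.7 CPM, against 6.93 CPM in epithelial-like cells. So few UMIs do not set it clear of that background either. The epithelial-like sum of all collagens, 76.0 CPM in polyp, was not above the erythroid-like 110 CPM. In normal it was 9.33 CPM, against 9.56 CPM in erythroid-like cells (1 UMI) and 15.5 CPM in acinar-like cells. Macrophage- or dendritic-like cells stood at 5.78 (normal, 1 UMI) and 47.7 CPM (polyp), a ratio of 8.24 (1.41–332). The part of background in the epithelial ratio was not tested. The ratio of Col18a1 to Col3a1 UMIs was 11.1 (8.97–14.0) in epithelial-like, 0.308 (0.0731–0.996) in erythroid-like and 0.0806 (0.0652–0.0987) in fibroblast-like polyp cells.

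Fibroblast transcripts also differed between the libraries in epithelial-like cells. Dcn, a proteoglycan of fibroblasts, stood at 0.231 (normal) and 5.94 CPM (polyp) epithelial-like cells, and the 9 fibroblast markers together at 17.2 and 35.8 CPM with 6 and 9 of 9 detected. Fbln1 gave 214 of the 223 normal UMIs of these markers, at 16.5 and 15.95 CPM, and the other 8 summed to 0.694 and 19.9 CPM from 9 and 824 UMIs. Of these 824, 393 were of Adamdec1. Mucous-like cells held 1076 of the 1485 polyp UMIs of the 9 markers. There the markers summed to 3.76 (normal) and 50.1 CPM (polyp), while the collagen ratio was 0.513. In lymphocyte- and plasma-like cells the 9 markers summed to 7.34 and 11.1 CPM, and the 8 to 6.57 and 9.78 CPM. The part of these transcripts in the collagen ratios was not tested. Thinned to 2000 UMIs, 1.35% (0.583–2.64) of normal and 5.27% (4.48–6.15) of polyp epithelial-like cells had a Col18a1 UMI, and 0.337% (0.0408–1.21) and 4.22% (3.51–5.02) a Col11a2 UMI. Unthinned shares were 3.99% and 15.1% for Col18a1 and 1.10% and 7.32% for Col11a2, at median depths of 19766 and 4846 UMIs. T-like cells, at median depths of 3242 and 2103 UMIs, had a Col18a1 UMI in 0.147% and 0.615% of cells after thinning.

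**Figure D5:**
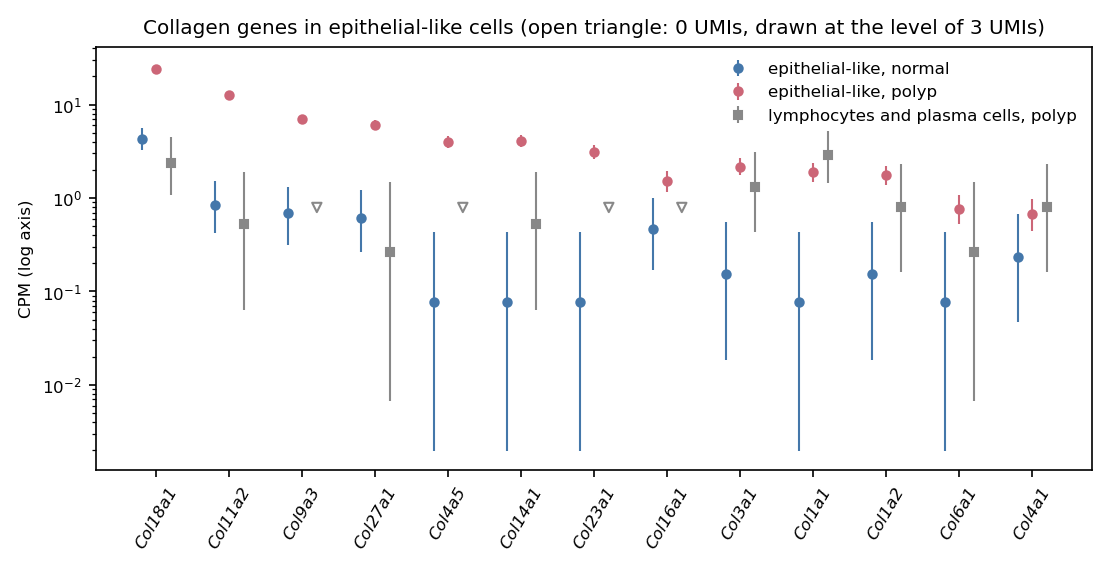
Level of 13 collagen genes in epithelial-like cells of both libraries and in lymphocyte- and plasma-like polyp cells, in CPM on a log axis with 95% counting intervals. Col18a1, Col11a2, Col9a3 and Col27a1 lie well above the grey squares in polyp, whereas Col3a1, Col1a1 and Col1a2 lie among them. The higher erythroid-like background is not drawn, and by it Col11a2 and Col9a3 are not clear of background.

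Mucous-like cells, which resemble the mucus cells of stomach and duodenal glands, had a summed collagen level of 109 CPM in 30 normal and 56.0 CPM in 2588 polyp cells, a ratio of 0.513 (0.394–0.679). Col18a1 gave 38 of the 58 normal UMIs, the fibrillar ratio was 0.931 (0.501–1.96), and basement membrane collagens had 0 and 106 UMIs. Of 12 members compared 1, Col18a1, was lower and none higher, against 8.41% and 15.7% of 11590 genes. Col18a1 stood at 71.5 CPM in normal, from 38 UMIs in 11 of 30 cells, and at 22.4 CPM in polyp, a ratio of 0.314 (0.226–0.449). Median depths were 20174 and 1610 UMIs. Among mucous-like cells with at least 2000 UMIs, 22 and 1207, the Col18a1 ratio was 0.305 (0.219–0.437), and Col9a3 was also lower, at 0.291 (0.118–0.931). So Col18a1 was lower in polyp than in normal mucous-like cells and higher in polyp than in normal cells of the remaining epithelium. The class was set by Muc6, Muc5ac, Gkn1, Gkn2, Tff1 and Aqp5 together. Whether the mucous-like cells of both libraries were of the same kinds was not tested. When all kept cells were clustered, the cluster named mucous held 8 normal and 534 polyp cells.

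Among polyp epithelial sub-types, leaving out 30 Paneth-like cells with 4 Col11a2 and 3 Col18a1 UMIs, crypt-like cells had the highest levels of Col11a2, Col18a1, Col9a3 and Col14a1. In 120 crypt-like cells Col11a2 stood at 48.9 CPM (38.1–61.8), Col18a1 at 41.9 CPM (32–54.0), Col9a3 at 22.4 CPM (15.3–31.6) and Col14a1 at 14.0 CPM (8.54–21.6). In 372 goblet-like cells Col18a1 stood at 34.9 CPM and Col11a2 at 20.1 CPM, and in 1141 epithelial-like cells with no sub-type at 23.3 and 18.7 CPM. The Col11a2 interval of the crypt-like cells lay above those of the goblet-like and mucous-like cells, the latter at 5.36 CPM (4.42–6.43). Their Col18a1 and Col14a1 intervals met those of the goblet-like cells (29.8–40.7 and 4.75–9.70). Their Col9a3 interval met that of the enteroendocrine-like cells (4.85–15.6). One crypt-like cell held 13 of the 60 Col18a1 UMIs. In normal, 42 crypt-like cells had 1 UMI of Col11a2 and 0 UMIs of Col18a1, at a median depth of 25908 UMIs against 11157 in polyp.

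In polyp enteroendocrine-like cells Col8a1 stood highest among the members. It stood at 32.2 CPM (23.6–43.0) in 218 polyp cells, from 46 UMIs in 27 cells, whereas the epithelium outside mucous- and enteroendocrine-like cells had 3 UMIs and 0.162 CPM, a ratio of 199 (64.04–1001). In the 36 normal cells 1 UMI of Col8a1 was counted, and Col27a1 stood highest, from 4 UMIs at 17.4 CPM, against 11.2 CPM in polyp. Col11a1, a fibrillar collagen chain, had 13 of its 18 UMIs of kept polyp cells in enteroendocrine-like cells, at 9.11 CPM and in 6 cells. Col25a1, a transmembrane collagen known from neurons, had 5 of its 15 UMIs of kept polyp cells there, in 3 cells. Col18a1 stood at 4.90 CPM in these cells and was 0.177 times (0.0709–0.368) the level of the remaining epithelium.

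In polyp macrophage- or dendritic-like cells Col14a1 stood at 15.6 CPM (8.90–25.3), from 16 UMIs in 13 of 326 cells. The level in lymphocyte- and plasma-like cells was 0.529 CPM, and that in erythroid-like cells 11.0 CPM (4.41–22.6), an interval that holds the macrophage value. All 13 cells had a UMI of the complement genes C1qa, C1qb or C1qc, as did 247 of all 326 cells, and 1 of the 13 had a UMI of the fibroblast genes Dcn or Lum. None of the 25 normal cells had a Col14a1 UMI.

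The least abundant of the 30 members were thinly spread. Col28a1 had 22 of its UMIs in polyp epithelial-like cells and none in normal ones, Col20a1 had 9 and 15, and the anchoring fibril collagen Col7a1 had 4 of 20 UMIs of normal cells and 7 of 8 of polyp cells in epithelial-like cells. Over all kept cells Col7a1 stood at 0.935 (normal) and 0.158 CPM (polyp), a ratio of 0.170 (0.0646–0.402). At the limit of 20 UMIs, Col11a1 and Col25a1 had 20 each, while Col6a4 with 14 and Col4a4 with 11 were left out. The other 12 left out were Col4a3, Col9a1, Col9a2, Col24a1, Col8a2, Col26a1, Col6a6, Col22a1, Col2a1 and Col17a1, with 1 to 9 UMIs over both matrices, and Col19a1 and Col10a1, with 0.

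Genes of collagen assembly and its partners did not all go the way of the collagens in fibroblast-like cells, where 10.8% of all genes were higher and 10.9% lower. Of 15 folding and modification genes compared, 1 was higher, Plod2, a lysyl hydroxylase (47.4 and 149 CPM, ratio 3.14, 1.61–6.85), and 1 was lower, P4ha2, a prolyl hydroxylase subunit. Of 4 procollagen processing genes none was higher and 2 were lower, the processing enhancers Pcolce (512 and 278 CPM, ratio 0.544, 0.417–0.709) and Pcolce2 (265 and 35.1 CPM, ratio 0.132, 0.0707–0.234). Of 4 crosslinking genes 1 was higher, Loxl2 (ratio 1.77, 1.04–3.17), and 1 was lower, Loxl1 (ratio 0.516, 0.359–0.744). Of 5 small leucine-rich proteoglycans, which bind to fibrils, 3 were higher: Aspn (71.1 and 438 CPM, ratio 6.17, 3.65–11.2), Bgn (863 and 1910 CPM, ratio 2.21, 1.88–2.61) and Podn (ratio 1.91, 1.09–3.53).

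Of 9 basement membrane partners compared in fibroblast-like cells none was higher and 5 were lower, among them Nid1, which links laminin to type IV collagen (469 and 206 CPM, ratio 0.439, 0.328–0.588), and the laminin chain Lamb2 (ratio 0.439, 0.222–0.867). Of 6 receptors the integrin Itgb1 was higher (ratio 1.56, 1.11–2.23), and the collagen-binding kinases Ddr2 (ratio 0.405, 0.279–0.588) and Ddr1 (ratio 0.308, 0.124–0.734) were lower. In epithelial-like cells, with 26.1% of all genes higher, 10 of 15 folding genes were higher and 3 lower, against 19.8% of all genes lower. With the 27 normal cells, where 9.9% of all genes were higher and 8.58% lower, the ratio of Loxl2 was 1.64 (0.882–3.33), that of Itgb1 1.21 (0.833–1.78), and Ddr1 had too few UMIs to be compared. Plod2, Bgn (ratio 1.55, 1.31–1.85), Aspn and Podn were then the higher genes. The lower ones were P4ha2, Pcolce, Pcolce2, Loxl1, Ddr2 and 5 of 8 basement membrane partners as before, with Ogn (ratio 0.566, 0.459–0.701) and Adamts2 (ratio 0.541, 0.302–0.998) in addition. Ratios of Plod2 were 6.47 (2.12–32.1), of Pcolce 0.518 (0.384–0.703), of Nid1 0.282 (0.21–0.379) and of Aspn 3.804 (2.25–6.92). The lists are counted without Dcn and Lum in the proteoglycans, since these mark the class.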

How the data were processed

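The deposited matrices held counts of UMIs per gene and barcode, per the file headers. Per the submitters' processing notes they were made with Cell Ranger 3.0.0 on mm10, whereas the matrix header names version 5.0.0. The labels' protocols describe tissue mincing, collagenase digestion and a strainer, which can change the mix of cells recovered. Gene positions came from GENCODE on mm10, and start regions from RefSeq.

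A barcode was kept if it had 500 or more UMIs from 250 or more genes and no more than 25% mitochondrial UMIs, and the highest doublet scores (Scrublet within scanpy 1.11.5, 0.8% per 1000 barcodes, seed 1) were removed, 85 in normal and 573 in polyp. The score's own threshold was not used.

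Each cell was given the class whose marker UMIs stood highest over the level of the same genes in cells of other classes of its library (Poisson p of at most 0.001, at least 2 times the expected UMIs, at least 2 markers and 3 UMIs, up to 10 rounds). A cell was set apart as mixed where a second, unrelated class had at least 0.5 of the top score. The marker lists held no collagen. This scoring rule was set after looking at the cells, with several versions tried while collagen totals per class were in view, and 2 of those versions are among the alternatives.

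UMIs were summed per class and library and given as CPM with exact Poisson intervals. Ratios carry exact conditional binomial intervals and shares Clopper-Pearson intervals. A ratio needed at least 20 cells of the class in both libraries and 20 UMIs of the gene in the class. With 1 library per group no test was run, and the ratio script was tested on simulated data. Named genes were all collagen genes with at least 20 UMIs over both matrices and, per pathway list, up to 4 others with the interval end farthest from 1. The members, the lists and the markers were chosen with earlier results of these data known. Alternatives covered cell filters, doublets, class rules, Leiden clusters, scaling, weighting, thinning and UMI minimums. The software was Python 3.11.15, numpy 2.4.6, scipy 1.17.1, pandas 2.3.3 and matplotlib 3.10.9.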

Additional observations from a re-analysis of the deposited data

Results flagged for a closer look

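The ratio of polyp to normal lay on opposite sides of 1 in different cell classes for Col14a1 and Col18a1, and these differences between classes were not tested. Col14a1 was 0.502 in fibroblast-like cells, 53.2 in epithelial-like cells and 90.2 (15.9–3588) in those outside the mucous and enteroendocrine classes. The last group is part of the epithelial-like cells, and both of these ratios rested on the same 1 normal UMI. The polyp epithelial-like level of 4.10 CPM was not clear of the erythroid-like background described above. Col18a1 was 0.314 in mucous-like cells, 5.60 in epithelial-like cells as a whole and 18.8 in epithelial-like cells outside the mucous and enteroendocrine classes. Whether the mucous-like cells of both libraries were of the same kinds was not tested.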

How the results depend on the processing

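Over 17 other settings, 12 planned and 5 chosen after seeing the data, 63 of 102 values stayed within the counting interval of the reported one, or within 1.5 times it for counts of genes, 38 moved and 1 turned its direction. The summed collagen ratio in fibroblast-like cells ranged from 1.28 to 1.89, the fibrillar ratio from 1.39 to 2.36, the ratio of the other collagens from 1.06 to 1.39 and the epithelial ratio from 5.65 to 27.3, all above 1.

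With no cell filter the fibroblast-like ratio was 1.48 for all, 1.69 for fibrillar and 1.17 for other collagens, 8 members were higher, and the stromal-like shares were 82.7% and 62.1%. With stricter filters the shares were 92.8% and 69.2% and the epithelial ratio 5.65. With doublets kept the 3 fibroblast-like ratios were 1.49, 1.72 and 1.15, and 8 members were higher. With 1 more marker needed they were 1.56, 1.78 and 1.22. With Leiden clusters the polyp share was 66.5% and the epithelial ratio 14.7. Several clusters then took no class name, among them 1 of 1 normal and 1998 polyp cells, so the epithelial-like cells compared were a different set. As a mean over cells the fibroblast-like ratio was 1.32 for all, 1.46 for fibrillar, 1.32 for basement membrane and 1.11 for other collagens, and the epithelial ratio was 12.8. Thinned to 500 UMIs per cell these were 1.28, 1.39, 0.946 (0.506–1.92) and 1.18, and the epithelial ratio was 27.3, so the basement membrane ratio turned, and the intervals of the fibrillar and other collagens met. At a 2-fold threshold 0 members were lower, since Col14a1 stood at 0.502. The share of all genes called was not taken under these settings, so the counts of members here cannot be set against it.

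Of the settings added later, keeping the mesothelium list apart gave fibroblast-like ratios of 1.59 for all and 1.83 for fibrillar collagens and a normal share of 79.5%. Without the cells with Msln or Upk3b the ratios were 1.35, 1.54, 1.43 for basement membrane and 1.06 for other collagens. Without the top collagen cell they were 1.89 for all and 2.36 for fibrillar collagens. Without mucous-like cells the epithelial ratio was 19.2. The causes of these moves were not tested.

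No paired analysis was possible because each group was 1 library, and no replicate was left out for the same reason. Depth limits the ratios of single genes, since the normal library had 33 fibroblast-like cells and 17 of 18 members compared in epithelial-like cells had under 20 normal UMIs.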
